A study of Mus musculus with 18 samples.

Results

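The complement components and receptors described here are 9 genes of the classical complement cascade and of the receptors that read it out: *C1qa*, *C1qb* and *C1qc*, the components *C3* and *C4b*, the receptors *C3ar1* and *C5ar1*, and the integrin subunits *Itgam* and *Itgb2*. They were taken by name from the deposited transcript count table and summed per gene, and all 9 were found among its 35960 gene-level entries. The libraries were made from the microglia, astrocyte and neuron fractions of brains of 10-month-old mice on a C57BL/6 background, either wild type (WT) or homozygous for *Atxn2*-CAG100-KIN (KIN), a knock-in of an expanded CAG repeat into *Atxn2* that serves as a model of SCA2 and ALS13. Each fraction and genotype was represented by 3 libraries, giving 18 in all. Microglia were bound first with beads against CD11b, astrocytes were then bound with beads against ACSA-2, and neurons were what remained after labelled non-neuronal and CD31-positive cells had been held back. The 3 fractions were prepared one after the other from the same brain. CD11b is the protein of *Itgam*, so the high *Itgam* in microglia follows from the isolation and is counted in no comparison of microglia with another fraction. The sex of each mouse and the mouse behind each replicate number were not used here.

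Complement is a chain of plasma proteins that tags particles for uptake. C1q, built from the products of *C1qa*, *C1qb* and *C1qc*, recognizes the target and starts the classical pathway, in which C4 and then C3 are cleaved and deposited on the surface. The released fragments C3a and C5a act through the G protein-coupled receptors encoded by *C3ar1* and *C5ar1*, and deposited C3 fragments are bound by complement receptor 3, the dimer of CD11b (*Itgam*) and CD18 (*Itgb2*). In the brain, C1q and C3 are known for tagging synapses that microglia remove, microglia are the main source of C1q, and *C4b* is often raised in reactive astrocytes and in oligodendrocytes of diseased or aged brain.

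On the mouse genome GRCm39, the 3 C1q genes lie side by side on the minus strand, *C1qb* at chr4:136606009-136613511, *C1qc* at chr4:136616466-136620376 and *C1qa* at chr4:136623223-136626161. *C3* lies at chr17:57510964-57535155 and *C4b* at chr17:34947354-34962912, both on the minus strand. *C3ar1* at chr6:122823393-122833122 and *C5ar1* at chr7:15980668-15993465 are on the minus strand too, and *Itgam* at chr7:127661808-127717753 and *Itgb2* at chr10:77366086-77401542 are on the plus strand. *C4a*, the near-identical neighbour of *C4b*, gave no values here, and whether reads of it were counted under *C4b* is not known. *Itgam* overlaps the gene model *Gm49368* on the same strand, under which 70 reads were listed over the 18 libraries.

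RefSeq promoter sequences of build GRCm38.p6 were held for 6 of the 9 genes, namely *C1qb*, *C1qc*, *C3*, *C3ar1*, *C5ar1* and *Itgam*. The 250 bases before the start site were searched for GAGGAA, a core bound by ETS factors such as the myeloid factor PU.1, on both strands (TTCCTC on the other). The motif was found in 3 of these 6 windows, against 25.9% of all 27025 genes with a promoter in the table. The 3 windows that hold it are shown, with the motif in capitals, while those of *C3*, *C3ar1* and *C5ar1* did not hold these letters.
*C1qb* promoter (chr4:136886201-136886450, minus strand): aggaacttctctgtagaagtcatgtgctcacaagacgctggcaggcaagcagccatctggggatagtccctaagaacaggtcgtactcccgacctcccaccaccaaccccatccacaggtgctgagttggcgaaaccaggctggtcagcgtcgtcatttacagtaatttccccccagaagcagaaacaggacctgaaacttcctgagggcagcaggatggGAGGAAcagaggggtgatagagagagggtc
*C1qc* promoter (chr4:136892915-136893164, minus strand): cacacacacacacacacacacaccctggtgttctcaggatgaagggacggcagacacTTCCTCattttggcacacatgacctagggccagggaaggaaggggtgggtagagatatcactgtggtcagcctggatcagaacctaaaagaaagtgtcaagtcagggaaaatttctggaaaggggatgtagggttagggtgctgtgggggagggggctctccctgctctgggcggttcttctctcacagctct
*Itgam* promoter (chr7:128062390-128062639, plus strand): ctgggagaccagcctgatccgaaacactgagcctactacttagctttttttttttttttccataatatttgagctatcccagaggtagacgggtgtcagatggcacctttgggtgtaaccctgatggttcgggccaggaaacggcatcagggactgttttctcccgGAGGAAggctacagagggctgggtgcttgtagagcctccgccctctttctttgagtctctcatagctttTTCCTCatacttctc
The motif began 30 bases before the start site in *C1qb* and 193 bases before it in *C1qc*, where it was on the other strand, and 84 and 15 bases before it in *Itgam*. A match describes these letters only and was not tested as a binding site.

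The glial libraries held between 2118317 and 3296398 counts, and the neuronal libraries between 761481 and 2017932. Levels are given as CPM, the counts scaled to a common library size with the TMM factors of edgeR. Up to 3 counts in a library were treated as the detection floor, which corresponded to 0.864 to 1.53 CPM in the glial libraries and 1.93 to 4.05 CPM in the neuronal ones and covers counting error only. The WT microglia library 2 stood apart with a TMM factor of 0.612, against 0.861 to 1.19 in the other 5 microglia libraries. The summed level of 6 astrocyte markers was 236 to 634 CPM in astrocytes and at most 25.1 CPM elsewhere, and that of 6 neuronal markers was 90.3 to 142 CPM in neurons and at most 88.0 CPM elsewhere. The neuronal sum rested on *Tubb3* and *Gad1*, with means of 83.9 and 16.8 CPM in neurons. The other 4 neuronal markers had higher means in astrocytes (6.28 to 9.91 CPM) than in neurons (1.02 to 3.33 CPM), and *Snap25* and *Syt1* were called higher there, so these markers of the neuronal fraction went against its label. The summed level of 7 microglia markers (*Aif1*, *Csf1r*, *Cx3cr1*, *P2ry12*, *Sall1*, *Tmem119* and *Trem2*) was 468 to 823 CPM in the microglia libraries, 6.34 to 16.3 CPM in the astrocyte libraries and 8.09 to 18.7 CPM in the neuronal libraries. For blood myeloid cells, which carry CD11b as well, 6 markers summed to 27.4 to 101 CPM in the microglia fraction. This sum rested mainly on the neutrophil genes *S100a8* and *S100a9*, which were nearly absent elsewhere. *Ly6c2* went the other way, with means of 1.40 CPM in microglia and 13.9 CPM in neurons. *Ccr2* was alike in both (3.19 and 3.11 CPM), and *Ly6g* and *Plac8* had few reads. The part of such cells in the microglial levels of the 9 genes was not tested. Oligodendrocyte markers were high in the astrocyte fraction, at a summed 173 to 322 CPM. The neuronal WT library 2 stood apart with 229 CPM of them, 218 CPM of it *Mbp*, against 6.50 to 20.3 CPM in the other neuronal libraries. Since RNA of whole fractions was measured, fewer cells of a type and less RNA per cell cannot be told apart.

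The 3 C1q genes were read almost only in the microglia fraction. *C1qa* was at 262, 327 and 267 CPM in the 3 WT microglia libraries and at 422, 432 and 456 CPM in the KIN microglia libraries. In the 6 astrocyte libraries 2 reads of it were counted in all, and in the 6 neuronal libraries 2, both from KIN library 2. *C1qb* was at 93.8, 187 and 95.8 CPM in WT microglia and at 213, 168 and 203 CPM in KIN microglia, with 7 reads over the astrocyte libraries and none in neurons. *C1qc* was at 63.0, 119 and 59.2 CPM in WT microglia and at 111, 111 and 122 CPM in KIN microglia, with 5 reads in astrocytes and none in neurons. No astrocyte or neuronal library rose above the floor for any of the 3 genes.

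**Figure D1:**
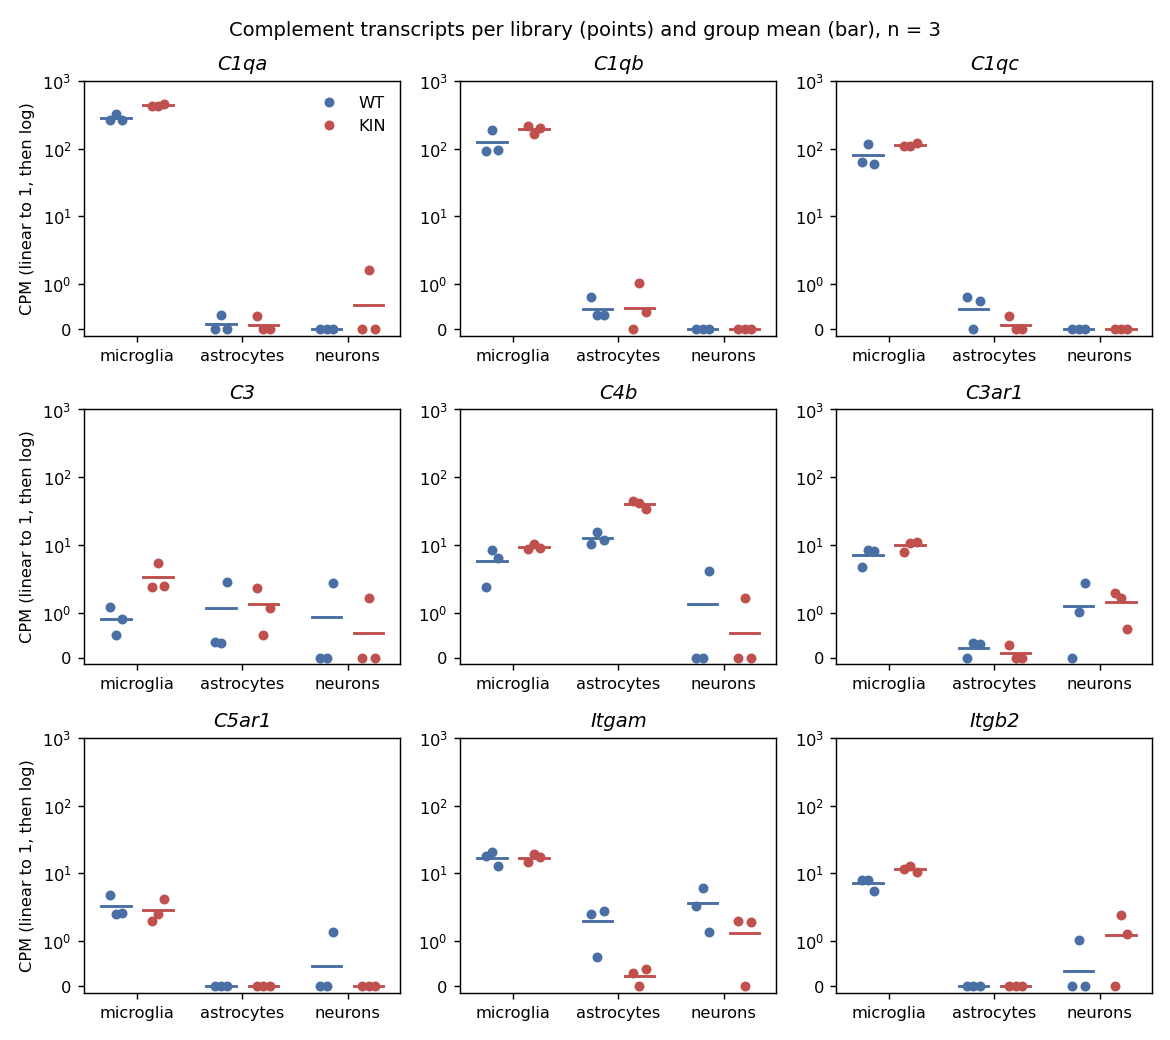
Level of each of the 9 genes in every library, in CPM (linear up to 1, logarithmic above), with WT in blue and KIN in red. Points are libraries and bars are means of 3; the C1q genes stand between 59.2 and 456 CPM in microglia and at or near 0 elsewhere, and *C4b* alone is highest in KIN astrocytes.

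Against the floor, *C1qa* was at least 332-fold higher in microglia than in astrocytes, *C1qb* at least 147-fold and *C1qc* at least 89.6-fold (edgeR quasi-likelihood test, Benjamini-Hochberg adjusted p = 1.1e-26, 1.5e-23 and 1.3e-22, 6 libraries against 6). Against neurons, whose floor was higher, the bounds were at least 130-fold, 57.5-fold and 35.0-fold (adjusted p = 8.6e-31, 5.5e-26 and 2.2e-24). The mean *C1qa* level in astrocytes was 0.0283% of that in microglia, the *C1qb* level 0.287% and the *C1qc* level 0.277%, where the 7 microglia markers ranged from 0.129% to 19.0% with a median of 0.574%. The 3 C1q values thus lay below the median of the microglia markers, but they rest on reads at or below the floor in every astrocyte library.

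Over the 18 libraries, the genes with the most similar pattern to the summed C1q reads were *Aif1*, *Capn3*, *Trem2*, *Fcrls* and *Ctss*, with Pearson's r between 0.992 and 0.994 on log2 CPM. They were the first 5 of 1800 genes with at least 10 CPM on average in microglia. *Aif1* codes for IBA1, *Trem2* for a lipid receptor of microglia and *Ctss* for the lysosomal protease cathepsin S. All 5 are high in the microglia fraction and at or below 0.380 CPM on average in the others, and the 18 points share that step, so the correlation is a description.

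Within microglia, the shares of the 3 genes in the C1q reads were compared. *C1qa* took 62.6%, 51.8% and 63.3% of them in the WT libraries and 56.6%, 60.8% and 58.4% in the KIN libraries. The WT library 2 was the lowest, with a 95% Wilson interval of 49.0% to 54.5% beside 54.3% to 58.8% in KIN library 1, the next lowest. These intervals cover counting error only, not the spread between mice. *C1qb* took 22.4%, 29.5% and 22.7% in WT and 28.6%, 23.6% and 26.0% in KIN, and *C1qc* 15.0%, 18.7% and 14.0% in WT and 14.8%, 15.6% and 15.7% in KIN. The shares of the genotypes overlapped for all 3 genes.

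*C3* reads were few in every fraction. In microglia, 4, 1 and 2 reads were counted in WT and 6, 15 and 7 in KIN, that is 1.19, 0.496 and 0.851 CPM against 2.38, 5.38 and 2.46 CPM. In astrocytes the levels were 0.353, 0.325 and 2.82 CPM in WT and 2.30, 0.512 and 1.15 CPM in KIN, and the neuronal libraries held at most 2 reads each. *C3* did not differ detectably between microglia and astrocytes (log2 fold change (log2FC) 0.61 ± 0.47 SE, adjusted p = 0.308). It passed the test between microglia and neurons (adjusted p = 0.0461), but the libraries overlapped and the microglial mean of 2.13 CPM lay below the floor of 4 of the 6 neuronal libraries, so no fold is given.

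*C4b* was the one gene of the 9 that was higher in astrocytes than in microglia. In astrocytes it was at 10.2, 15.6 and 11.9 CPM in WT and at 45.2, 40.9 and 33.4 CPM in KIN. In microglia it was at 2.39, 8.43 and 6.39 CPM in WT and at 8.74, 10.4 and 9.12 CPM in KIN, and the neuronal libraries held at most 3 reads. The level in astrocytes was 3.34-fold that in microglia (log2FC of microglia over astrocytes -1.74 ± 0.23 SE, adjusted p = 2.2e-08), although the lowest astrocyte library (10.2 CPM) lay just below the highest microglia library (10.4 CPM), and at least 9.41-fold that in neurons (adjusted p = 3.7e-15).

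The receptor genes followed the microglia fraction at lower levels. *C3ar1*, the C3a receptor, was at 4.78, 8.43 and 8.09 CPM in WT microglia and at 7.95, 10.8 and 10.9 CPM in KIN microglia. *C5ar1*, the C5a receptor, was at 4.78, 2.48 and 2.55 CPM in WT microglia and at 1.99, 2.51 and 4.21 CPM in KIN microglia. *Itgb2*, the shared beta subunit of leukocyte integrins, was at 8.06, 7.94 and 5.53 CPM in WT microglia and at 11.5, 12.9 and 10.5 CPM in KIN microglia. No read of *C5ar1* or *Itgb2* was counted in any of the 6 astrocyte libraries, and *C3ar1* had 3 reads there in all. Microglia were at least 7.80-fold above astrocytes for *C3ar1*, at least 2.84-fold for *C5ar1* and at least 8.66-fold for *Itgb2* (adjusted p = 1.4e-13, 2.6e-08 and 1.2e-14). Against neurons the bounds were at least 3.05-fold, 1.11-fold and 3.38-fold (adjusted p = 4.2e-07, 0.00013 and 4.9e-09). *C3ar1* in neurons had 9 reads over 6 libraries, at or below the floor in each, so no neuronal level is given.

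*Itgam* itself, the bead target, was at 18.2, 20.3 and 12.8 CPM in WT microglia and at 14.7, 19.4 and 17.2 CPM in KIN microglia. In astrocytes, 7, 2 and 9 reads were counted in WT and 1, 0 and 1 in KIN. In neurons, 3, 6 and 1 reads were counted in WT and 3, 0 and 3 in KIN. The mean level was 6.45% of the microglial level in astrocytes and 14.3% in neurons, where only WT library 2 rose above the floor. *Itgb2*, whose product pairs with CD11b, had no read in astrocytes and stayed at or below the floor in every neuronal library.

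Between fractions, without *Itgam*, 6 of the other 8 genes were called higher and 1 lower in microglia than in astrocytes. A call required that the adjusted p did not exceed 0.05 and that the log2FC was 1 or more in size. Of all genes tested, 33.6% were called in this comparison, 14.6% higher in microglia. The 6 genes called higher had enough reads for a test in microglia only, so their count was largely set by the filter. Against neurons, 8 of 8 were called higher in microglia, where 19% of all genes were. All 8 had enough reads in microglia only, so this count too was largely set by the filter and is given as a description. The call of *C3* was lost with DESeq2 (adjusted p = 0.0821) and with a replicate block (0.0719), and in the WT libraries alone 5 genes were called, without *C3*, *C4b* and *C5ar1*. These fits treat fractions of the same brains as separate samples. Between astrocytes and neurons, 3 of the 9 genes had enough reads to be tested and only *C4b* was called, with 30% of all genes called.

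Many of the other complement genes had few reads or none. Of 51 further genes of the cascade, its regulators and its receptors, 3 (*C4a*, *C7* and *Cfi*) had no reads or no entry, and 22 stayed at or below 3 counts in every library, among them *C1s1*, *Cfb*, *Hc* (which codes for C5) and *Serping1*. The remaining 26 were above the floor in at least 1 library. Between microglia and astrocytes, 1 of 22 tested was called higher in microglia and 8 lower, where 14.6% of all genes were called higher and 19% lower. The one called higher was *Itgax*, the alpha subunit of complement receptor 4, at least 8.48-fold. The lowest were *Clu* (clusterin, an inhibitor of the terminal complex), 37.6-fold, and the *Sez6* family member *Sez6l2*, 20.2-fold below astrocytes. Against neurons, *Sez6*, a neuronal membrane protein known to restrain complement, was 16.0-fold lower in microglia and 5.04-fold lower in astrocytes. *Clu* was 15.4-fold and *Vtn* (vitronectin) at least 6.60-fold higher in astrocytes than in neurons. The map of mean levels by fraction shows the 9 genes next to these 26.

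**Figure D2:**
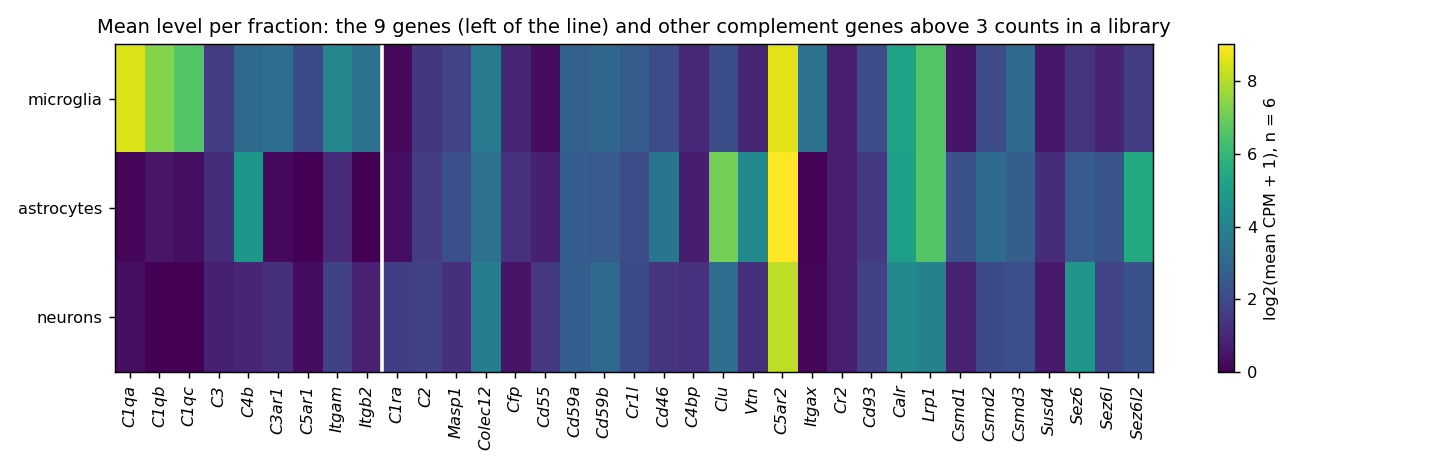
Mean level of each gene in the 3 fractions (rows), as log2(mean CPM + 1) over 6 libraries, for the 9 genes left of the white line and the 26 other complement genes above 3 counts in a library. Colours are read down a column, that is for a gene across the fractions. C1q and *Itgax* are brightest in microglia, *C4b*, *Clu*, *Vtn*, *Cd46* and *Sez6l2* in astrocytes and *Sez6* in neurons.

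The comparison of genotypes asked which complement transcripts differed between KIN and WT in each fraction. In microglia, 8 of the 9 genes had a log2FC above 0, but none of them was called. By an unadjusted p of at most 0.05, 5 of the 9 passed, where 12% of all 10831 genes tested did. *C3* was among these 5 and had enough reads for a test in the KIN libraries only. DESeq2 called none of the 9 either, and 1.52% of all genes were called by edgeR. The median log2FC of the 9 was 0.61, beside -0.01 over all genes tested.

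*C1qa* was higher in every KIN microglia library (422 to 456 CPM) than in any WT library (262 to 327 CPM), a 1.53-fold difference (log2FC 0.61 ± 0.22 SE, edgeR adjusted p = 0.194). For *C1qb* the log2FC was 0.64 ± 0.26 SE (adjusted p = 0.279) and for *C1qc* 0.52 ± 0.25 SE (adjusted p = 0.419), and in both the WT library 2 lay within the range of KIN while the other WT libraries lay below it. Without this library, the log2FC was 0.72 for *C1qa*, 1.03 for *C1qb* and 0.90 for *C1qc*, and all 3 passed the adjusted p (0.0093, 0.00065 and 0.0025, edgeR). Many more genes over the whole fit were called without this library too, as given below, so the change was not particular to C1q. Over all settings tried, the adjusted p lay between 0.0073 and 0.574 for *C1qa*, between 0.00065 and 0.725 for *C1qb* and between 0.0025 and 0.984 for *C1qc*. Per read of the 7 microglia markers, which needs no library scaling, 0.880, 0.769 and 0.902 C1q reads were counted in WT and 1.12, 1.28 and 1.39 in KIN. This ratio did not overlap between genotypes and was lowest in the WT library 2. It is given as a description, since the markers were not constant one by one: *P2ry12* was at 22.7, 41.2 and 23.4 CPM in WT and at 15.5, 19.7 and 16.8 CPM in KIN (log2FC -0.72, edgeR adjusted p = 0.193).

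**Figure D3:**
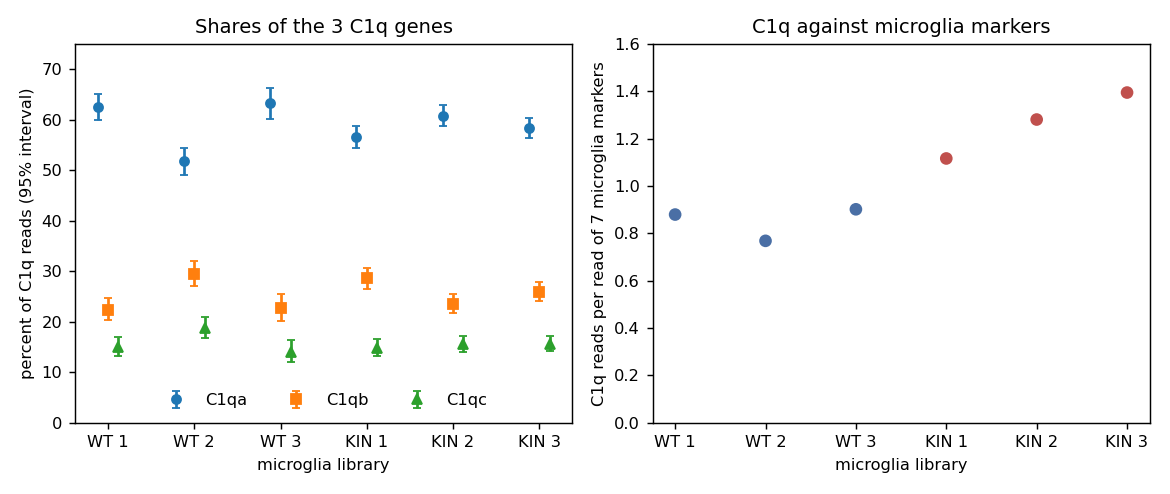
Left, share of *C1qa*, *C1qb* and *C1qc* in the C1q reads of each microglia library, in percent with 95% Wilson intervals. Right, C1q reads per read of 7 microglia markers, with WT in blue (0.769 to 0.902) and KIN in red (1.12 to 1.39).

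Among the components downstream, *C3* had the highest log2FC, 1.87 ± 0.59 SE (adjusted p = 0.116), with 7 reads over the WT libraries in all. Its WT mean of 0.847 CPM lay below the floor of each WT library (0.896 to 1.49 CPM), so the size of this difference is uncertain. The lowest KIN library (2.38 CPM) lay above the highest WT library (1.19 CPM). *C4b* was 1.76-fold higher in KIN microglia (log2FC 0.82 ± 0.34 SE, adjusted p = 0.304), and its groups were separated by a narrow gap, 8.43 CPM in the WT library 2 against 8.74 CPM in the KIN library 1. Without the WT library 2, *C4b* was called (log2FC 1.19, adjusted p = 0.0463, with a range of 0.0463 to 1.00 over all settings).

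Of the receptors, *Itgb2* was 1.61-fold higher in KIN microglia with no overlap between genotypes (log2FC 0.69 ± 0.27 SE, adjusted p = 0.271). *C3ar1* had a log2FC of 0.53 ± 0.30 SE (adjusted p = 0.529) and *C5ar1* one of -0.23 ± 0.44 SE (adjusted p = 0.940), and both overlapped. *Itgam* averaged 17.1 ± 3.90 CPM (SD, n = 3) among the WT and 17.1 ± 2.34 CPM among the KIN libraries (log2FC 0.00 ± 0.25 SE, adjusted p = 0.999 from edgeR), a gene on whose product the cells had been selected. Groups without overlap and higher in KIN were found for 4 of the 9 genes, *C1qa*, *C3*, *C4b* and *Itgb2*, where 8.46% of all genes tested were so. Of these 4, *C3* had enough reads for a test in KIN only, the group where it was high.

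Cell type markers moved with genotype in the same libraries. None of the 7 microglia markers was called, and their summed level was 468 to 823 CPM in WT and 555 to 669 CPM in KIN. The summed level of border macrophage markers was higher in every KIN library (14.7 to 18.9 CPM) than in WT (8.93 to 11.7 CPM), with none of 4 tested called, and that of blood myeloid markers overlapped (56.2 to 74.9 CPM in WT and 27.4 to 101 CPM in KIN). Of 6 neuronal markers, 3 were called lower, with a summed level of 10.9 to 42.7 CPM in WT and 5.96 to 6.46 CPM in KIN. Of 3 astrocyte markers tested, *Slc1a2* was called lower (log2FC -2.67, edgeR adjusted p = 0.00039), and the sum over all 6 was 21.8 to 25.1 CPM in WT and 14.3 to 16.9 CPM in KIN. The summed oligodendrocyte markers were at 13.2 to 17.9 CPM in WT and 9.33 to 10.2 CPM in KIN, with none of 2 tested called. Of 3 endothelial markers, *Cldn5* was called lower (log2FC -2.12, adjusted p = 0.0133), while their sum overlapped. The share of mitochondrial reads was 0.0368%, 0.0269% and 0.0272% in the WT libraries and 0.0520%, 0.0590% and 0.0643% in the KIN libraries, without overlap. The part of these shifts in the complement values was not tested.

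Of the 18 further complement genes tested in microglia, where 1.52% of all genes were called, *Itgax* was the one called. It was at 1.79, 0.992 and 1.70 CPM in WT and at 17.1, 17.9 and 15.8 CPM in KIN, a 10.6-fold difference (log2FC 3.41 ± 0.34 SE, edgeR adjusted p = 7.1e-07). *Itgax* codes for CD11c, which pairs with the same CD18 subunit as CD11b, and is widely used as a mark of disease-associated microglia. The KIN libraries lay far above the WT libraries for *Itgax*, while for *Itgam*, which codes for the alpha subunit that the beads bound, the genotypes overlapped.

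**Figure D4:**
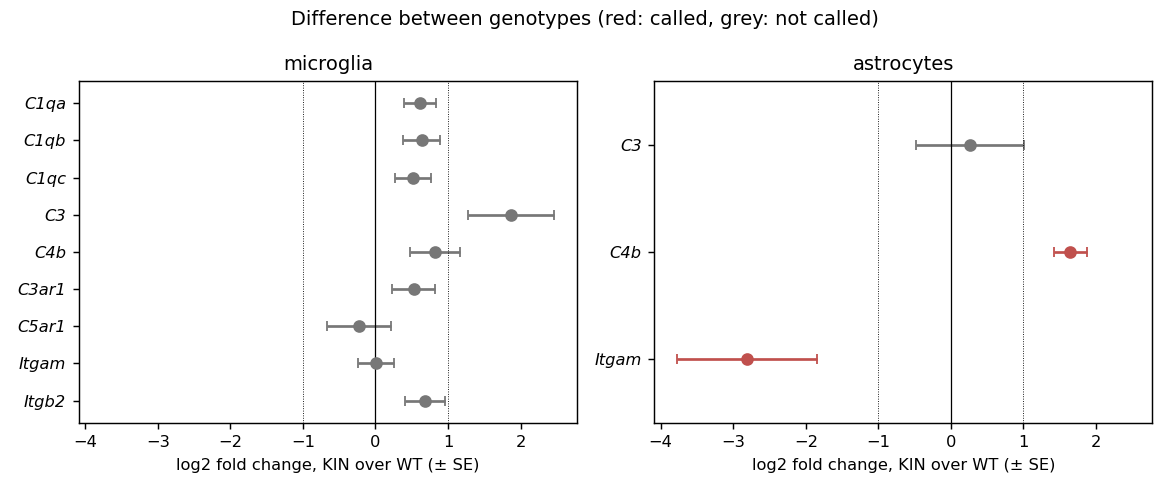
Log2FC of KIN over WT with its standard error, for the 9 genes in microglia (left) and the 3 with enough reads in astrocytes (right), with dotted lines at -1 and 1. Called genes are in red, *C4b* at 1.64 and *Itgam* at -2.81 in astrocytes; no gene is called in microglia, where *C3* stands at 1.87 with the widest error.

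In astrocytes, *C4b* was higher in all 3 KIN libraries than in any WT library. From 12.6 ± 2.74 CPM (SD, n = 3) in WT it went to 39.8 ± 6.01 CPM in KIN, a 3.13-fold difference with the lowest KIN library at 33.4 CPM and the highest WT library at 15.6 CPM. The log2FC was 1.64 ± 0.23 SE (edgeR adjusted p = 1.8e-06). The reads were listed under 3 transcripts of the gene, and both with enough reads rose, the full-length coding transcript by 1.48 ± 0.27 SE and a retained-intron transcript at the 3' end of the gene by 1.88 ± 0.32 SE on the log2 scale (adjusted p = 3.0e-05 and 4.9e-06 in a fit over all transcripts). These transcripts share exons, so reads could have been divided between them by the counting.

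*Itgam* fell in KIN astrocytes, from 7, 2 and 9 reads in WT to 1, 0 and 1, which is at least 1.67-fold lower against the floor (log2FC -2.81 ± 0.97 SE, adjusted p = 0.0467). This call rested on 20 reads and was lost with DESeq2 (adjusted p = 0.220, with a range of 0.0048 to 0.220 over all settings) and without any one of the 3 KIN libraries, and it could not be tested without the WT library 1 or 3. *C3* overlapped between genotypes (log2FC 0.26 ± 0.75 SE, adjusted p = 0.880). The other 6 genes had too few reads to be tested in this fraction. So 2 of 3 tested genes were called, 1 in each direction, where 8.84% of all genes tested were called. *Itgam* had enough reads for a test in WT only, the group where it was high. Its call is therefore partly set by the filter, and the count is given as a description.

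Markers of several cell types moved with genotype in the astrocyte libraries. The oligodendrocyte marker *Mog* rose from 10.6, 14.3 and 11.6 CPM to 31.7, 27.6 and 29.5 CPM (log2FC 1.27, edgeR adjusted p = 0.00011), and *Mag* had a log2FC of 0.78 (adjusted p = 0.0108), while *Mbp* (0.30) and *Olig2* (0.48) were not called, so that 1 of 4 was called. Of the 6 astrocyte markers, *Gja1* (log2FC -1.39) and *Slc1a2* (-1.34) were called lower, and *Gfap*, which is raised in reactive astrocytes, went from 7.06, 15.3 and 6.90 CPM to 18.7, 16.4 and 16.1 CPM (log2FC 0.80, adjusted p = 0.0369, below the fold required). The summed astrocyte markers were at 421 to 634 CPM in WT and 236 to 266 CPM in KIN. The summed microglia markers were at 10.7 to 16.3 CPM in WT and 6.34 to 11.1 CPM in KIN, the border macrophage markers at 4.23 to 9.09 and 1.53 to 3.74 CPM, and the blood myeloid markers at 2.60 to 3.18 and 0 to 1.15 CPM. The part of these shifts in the *C4b* and *Itgam* values was not tested.

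**Figure D5:**
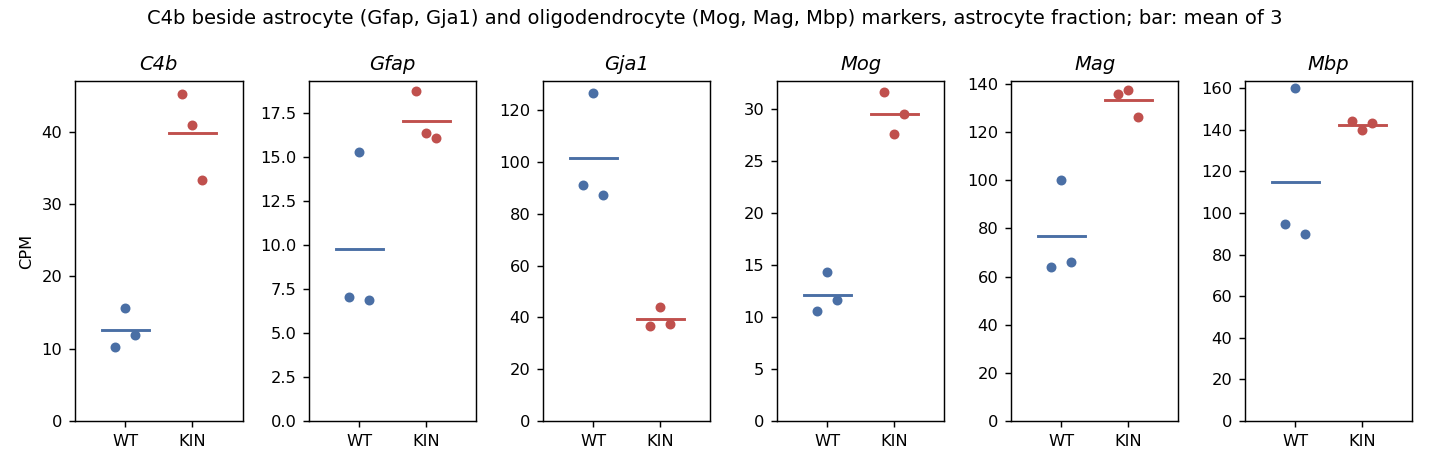
Level of *C4b* and of 5 markers in each astrocyte library, in CPM, with WT in blue, KIN in red and bars at the mean of 3. *C4b*, *Gfap*, *Mag* and *Mog* are higher in every KIN library than in any WT library, *Gja1* is lower, and *Mbp* overlaps.

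Of 21 further complement genes tested in astrocytes, 1 was called higher and 2 lower in KIN, where 8.84% of all genes were called in either direction. *Colec12*, a scavenger receptor of the collectin family, fell from 10.6, 12.4 and 14.4 CPM to 6.34, 5.12 and 6.52 CPM (log2FC -1.05 ± 0.28 SE, edgeR adjusted p = 0.0083), a call lost with DESeq2 (adjusted p = 0.100). *Sez6l*, of the *Sez6* family of complement inhibitors in the brain, fell from 8.83, 2.60 and 8.15 CPM to 0.864, 2.56 and 1.53 CPM (log2FC -2.09 ± 0.46 SE, adjusted p = 0.0011), beside neuronal markers of which 5 of 6 were called lower, while the sixth, *Tubb3*, was higher in every KIN library (log2FC 0.92, adjusted p = 0.0217). *C5ar2*, the second C5a receptor, rose from 291, 394 and 272 CPM to 509, 921 and 716 CPM (log2FC 1.15 ± 0.24 SE, adjusted p = 0.00075), a call lost without the KIN library 2 (log2FC 0.92). Its reads need care, since they were high in all 18 libraries, neurons included (191 to 352 CPM), and were spread evenly over its 4 listed transcripts, with 24.6% to 25.6% in each. In microglia of both genotypes and in KIN astrocytes, *C5ar2* was highest in the library with the lowest TMM factor of its group, and in the other 3 groups it was not. The annotation places the small nuclear RNA gene *Gm26473* within its locus.

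The KIN libraries of neurons (1473194 to 2017932 counts) were deeper than the WT libraries (761481 to 1017972 counts). None of the 9 genes had 5 reads in 2 libraries, so no difference between genotypes was detectable in neurons at this depth. Of 12 further complement genes tested there, none was called by edgeR, where 0.0739% of all genes were, and DESeq2 called none. By an unadjusted p of at most 0.05, 1 of the 12 passed, where 5.04% of all genes did.

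Whether the KIN effect differed between microglia and astrocytes was tested with an interaction term over the 12 glial libraries. Of the 9 genes, 6 stayed at or below the floor in every astrocyte library, so the test could bear only on *C3*, *C4b* and *Itgam*. None of these 3 was called by edgeR or DESeq2, where 1.14% of all genes were called by edgeR. By an unadjusted p of at most 0.05, *Itgam* passed, where 13.1% of all genes did. For *C4b*, the log2FC of 0.82 in microglia and 1.64 in astrocytes differed by -0.83 ± 0.43 SE (edgeR adjusted p = 0.417). For *Itgam* the difference was 2.80 ± 0.84 SE (adjusted p = 0.0746), a fitted value that is no bound since KIN astrocytes were at the floor, and for *C3* it was 1.61 ± 0.96 SE (adjusted p = 0.499).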

How the data were processed

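RNA of 18 libraries was sequenced as panRNA-seq with unique molecular identifiers. Per the labels and the study's methods, the authors trimmed reads (cutadapt 4.6), removed duplicates by identifier, mapped them with Bowtie2 2.4.4, first to classes of short and other non-coding RNA and last to mm39, and counted them with HTSeq 2.0.2 without regard to strand. The deposited values used here are whole-number counts per transcript, without normalization. The authors' own fold changes and p-values in the same table were left aside, as were 36 further per-sample columns.

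Counts were summed by symbol (116873 transcripts). Each comparison was fitted over all genes that reached 5 reads in 2 or more of its libraries, with TMM scaling and the quasi-likelihood test of edgeR 4.0.16 (R 4.3.3), and adjusted by Benjamini-Hochberg over all genes. Genotypes were compared on the 6 libraries of a fraction and fractions on 12 libraries with genotype as a covariate. A call needed an adjusted p not above 0.05 together with a log2FC of 1 or more in size; standard errors come from the log2FC and its F statistic. Where every library of a group held 3 counts or fewer, the fold is a lower bound against 3 counts per library. The fits were tested on simulated counts before use. Libraries stand for mice, so p-values measure the spread between 3 animals per group.

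The members and lists were chosen with earlier results of these data known. Some listed complement and marker genes are not reported here and were taken out of the lists, counts and sums after their values had been seen. Other genes named were listed complement genes called in a comparison with no overlap between groups (in fraction comparisons the 2 largest each way), *C4a*, and the 5 genes most like C1q; *Sez6l2*, *Cd46*, *Cd59a*, *Cd59b*, *Lrp1*, *Calr*, the named low genes, the overlapping gene models and the marker genes were named beyond this rule, after their values had been seen.

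Alternatives were DESeq2 1.42.0, its size factors, TMM without mitochondrial or the 10 most abundant genes, no filter, a mean of at least 10 counts, adjusted p alone, transcripts, all 18 libraries in one fit, a replicate block, one genotype at a time, and each library left out. Library totals without TMM factors, and leaving out both microglia libraries of the lowest TMM factors, were chosen after seeing the data.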

Additional observations from a re-analysis of the deposited data

Results flagged for a closer look

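*Sez6l2*, a membrane protein of the *Sez6* family of complement inhibitors, differed in its KIN effect between the glial fractions by a test of that difference. The effect in microglia minus that in astrocytes was -2.51 ± 0.58 SE on the log2 scale (edgeR interaction term, adjusted p = 0.0131). In microglia it was at 4.18, 1.98 and 3.83 CPM in WT and at 0.795, 0.718 and 1.05 CPM in KIN, with at most 3 reads in each KIN library, which is at the floor, so the fitted difference is no bound. In astrocytes it was at 38.5, 38.4 and 30.1 CPM in WT and at 56.2, 50.1 and 51.8 CPM in KIN. Neither single comparison was called (adjusted p = 0.0848 in microglia and 0.0713 in astrocytes). The call of the difference was lost with DESeq2 (adjusted p = 0.0673), without the microglia WT library 1 (0.0851) and without the microglia KIN library 2 (0.0558), with a range of 0.0031 to 0.0851 over all settings run. Of 6 neuronal markers, 3 were called lower in KIN microglia and 5 in KIN astrocytes. The sixth, *Tubb3*, moved as *Sez6l2* did. It had 18, 3 and 5 reads in WT and 0, 3 and 0 reads in KIN microglia, and was at 7.77, 5.53 and 10.0 CPM in WT and at 10.1, 14.3 and 21.1 CPM in KIN astrocytes. Its difference between the fractions was called as well (-3.94 ± 0.79 SE on the log2 scale, edgeR interaction term, adjusted p = 0.0024), a fitted value that is no bound since KIN microglia were at the floor. *Tubb3* was picked out after its values were seen, and the part of neuronal RNA in the *Sez6l2* value was not tested.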

How the results depend on the processing

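Of the 141 alternative counts of complement genes called, 129 stayed within 1.5 times the main count, and 310 of 337 alternative values of single genes kept their direction and their side of the call. In microglia, the count of genes called between genotypes was 0 and ranged from 0 to 2 with each library left out; only without the WT library 2 was it 2 (*C1qb* and *C4b*), and over all genes the calls then went from 165 to 453, with 38 under DESeq2. Leaving out both libraries of the lowest TMM factors gave 0 called, and *C1qa*, *C1qb* and *C1qc* passed the adjusted p there too (0.0073, 0.0053 and 0.0073 from edgeR) at log2FC of 0.74, 0.96 and 0.92. The share of all genes that passed in that setting is not given, so this is a description. *Itgam* in microglia, near 0, turned sign to -0.012 with DESeq2, -0.011 with its size factors, -0.012 with TMM without the 10 most abundant genes, -0.019 without a filter and -0.0083 at a mean of at least 10 counts, and ranged from -0.19 to 0.11 with each library left out, while *C5ar1* ranged from -0.59 to 0.20. In astrocytes, the count of 2 fell to 1 with DESeq2, at a mean of at least 10 counts and with transcripts, and ranged from 1 to 2 with each library left out, through *Itgam* in each case; all genes called were 1039, and 353 with DESeq2. *C4b* stayed called in every setting run in astrocytes, at log2FC between 1.22 and 1.82 (adjusted p from 8.3e-11 to 0.0015). *C3* there ranged from -0.17 to 0.54 with each library left out and was -0.15 on library totals. The call of *Colec12* was lost with DESeq2, without the WT library 3 and without the KIN library 2, and that of *C5ar2* without the KIN library 2 (0.92) and on library totals (0.66). Library totals moved the median log2FC of all genes to 0.13 in microglia and -0.42 in astrocytes, so values on that scale are read against these shifts. The interaction count of 0 ranged from 0 to 1 with each library left out (*Itgam*, 3.18, adjusted p = 0.0215 without the astrocyte WT library 2), and *C3* ranged from -0.079 (without the astrocyte WT library 3) to 2.33. Between microglia and neurons, 8 genes were called and 5 in the WT libraries alone; between astrocytes and neurons, 1 was called and 3 without a filter, 1 higher and 2 lower. The causes were not tested. Same-numbered WT microglia and astrocyte libraries deviated together weakly (correlations of 0.064, 0.21 and 0.098 over 13552 genes, with neuronal markers lowest in library 2 of both), the other same-numbered libraries had correlations of -0.063 to 0.054, and the labels do not say that a number marks a mouse. With the replicate block, the counts were 0 in microglia, 2 in astrocytes, 0 in neurons and 0 for the interaction, and 7 for microglia against astrocytes, 7 against neurons and 1 for astrocytes against neurons; over all genes, the block gave 155 calls in microglia and 1198 in astrocytes. Low counts limit *C3*, *C5ar1* and *Itgam* outside microglia, and every gene in neurons.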

Other observations

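Among the complement regulators that were read in all fractions, the membrane inhibitors *Cd59a* and *Cd59b*, which block the terminal complex, were tested in microglia and in astrocytes and were not called between genotypes in either. *Clu* was at 137 ± 39.6 CPM (SD, n = 3) in WT astrocytes and 133 ± 6.94 CPM in KIN astrocytes, and *Lrp1*, a scavenger receptor, at 108 ± 8.80 and 86.1 ± 8.21 CPM there, with no overlap and without a call (edgeR adjusted p = 0.321). *Calr*, whose product calreticulin binds C1q at the cell surface, differed by 0.73 on the log2 scale between KIN and WT astrocytes (edgeR adjusted p = 0.0147), with 24.0, 26.7 and 24.1 CPM in WT and 42.1, 37.3 and 46.0 CPM in KIN, which is below the fold required for a call.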
